A study of Hypericum perforatum with 6 samples.

Results

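*FDM1-like A*, *FDM1-like B* and *FDM1-like C* of *Hypericum perforatum* (St John's wort) were followed here through their assembled transcript variants, which were 7 of the 67022 transcripts in the expression table. The variants were chosen by their transcript numbers, as the study had aligned them to the annotated genes, and the rule itself uses no level. *FDM1-like A* held 2 variants, *FDM1-like B* held 1 and *FDM1-like C* held 4. RNA was sequenced from laser-microdissected nucellus, the tissue of the ovule around the germline precursor, before meiosis. There were 3 libraries of sexual plants and 3 of aposporous plants, which GEO also lists as apomictic. Every library held the pooled RNA of 3 plants, purified from 250000 µm2 of tissue sections. No source used here says whether the pools of a phenotype came from separate growths, so that p-values measure the spread between these pools. The plants of the study were tetraploid, whereas the gene models came from the genome of a sexual diploid. Outside the gene family the table pairs no transcript with a gene name, and the nucellus could not be checked against marker genes.

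IDN2 and the FDM proteins of Arabidopsis are plant RNA-binding proteins with XS and XH domains and a coiled coil between them. They act in RNA-directed DNA methylation, in which small RNAs pair with a scaffold transcript and guide cytosine methylation to the matching DNA. In Arabidopsis, FDM1 binds double-stranded RNA and works in complex with IDN2. In ovules of Arabidopsis and maize the pathway is known for its part in restricting which cells take on a germline fate.

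*FDM1-like A* and *FDM1-like B* are neighbours on contig 61981 of the draft genome, a build to which the sources used here give no name. *FDM1-like A* runs from 167628 to 170545 and *FDM1-like B* from 142406 to 145582, both on the minus strand and 22045 bp apart. *FDM1-like C* lies on contig 54789 from 9 to 2763, also on the minus strand. The variants were 576 to 1548 nt long and the genes span 2755 to 3177 bp, so no variant was as long as its gene. Exons and untranslated regions of the variants were not analysed here.

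The libraries held 29355488 to 39483349 mapped reads, and 1 read on a transcript of 1000 nt was worth 0.0253 to 0.0341 RPKM (reads divided by transcript length and by library depth). The third sexual library was the least like the others. Its Pearson correlations with the other 5 libraries, over log2 levels of all tested transcripts, were 0.873 to 0.912. All other pairs of libraries gave 0.9125 to 0.968, so the ranges nearly met. Values without that library are therefore given for the fold changes, shares and ratios that it moved most.

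*FDM1-like A* was read almost entirely from its 608 nt variant, Locus_1163_Transcript_42_51 of the assembly (written L1163_T42_51 here, with other variants shortened likewise), in both phenotypes. In the sexual libraries L1163_T42_51 reached 118, 122 and 87.1 RPKM, and in the aposporous ones 123, 107 and 103 RPKM. These levels overlapped, with the lowest value in the third sexual library, and they lay at percentile 97.1 of all transcripts in the sexual and 97.3 in the aposporous means. The means were 109 ± 19.1 and 111 ± 10.7 RPKM (SD, n = 3 each). The log2 fold change of aposporous over sexual was 0.04 with a standard error of 0.22 and a 95% interval from -0.47 to 0.54 (limma on log2(RPKM + 1), FDR = 0.966). Leaving out the third sexual library turned it to -0.12, so that no direction could be given for this variant.

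The longer variant of *FDM1-like A*, Locus_2_Transcript_426266_835163 (L2_T426266_835163) of 1351 nt, was the minor form. Its level was 9.13, 9.14 and 1.5 RPKM in the sexual libraries and 3.91, 2.17 and 4.16 RPKM in the aposporous ones. The first 2 sexual libraries were the highest of the 6 and the third sexual library was the lowest. The coefficient of variation (SD over mean) among sexual libraries was 66.8%, against 5.47% from counting error alone. With all libraries the log2 fold change was -0.56 ± 0.58 (SE), with a 95% interval from -1.87 to 0.75 (limma, FDR = 0.755). Without the third sexual library it was -1.23 (limma, FDR = 0.111), whereas without the first or the second sexual library it was -0.22 (limma, FDR = 0.897 and 0.924). None of these passed the threshold of 0.05.

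**Figure D1:**
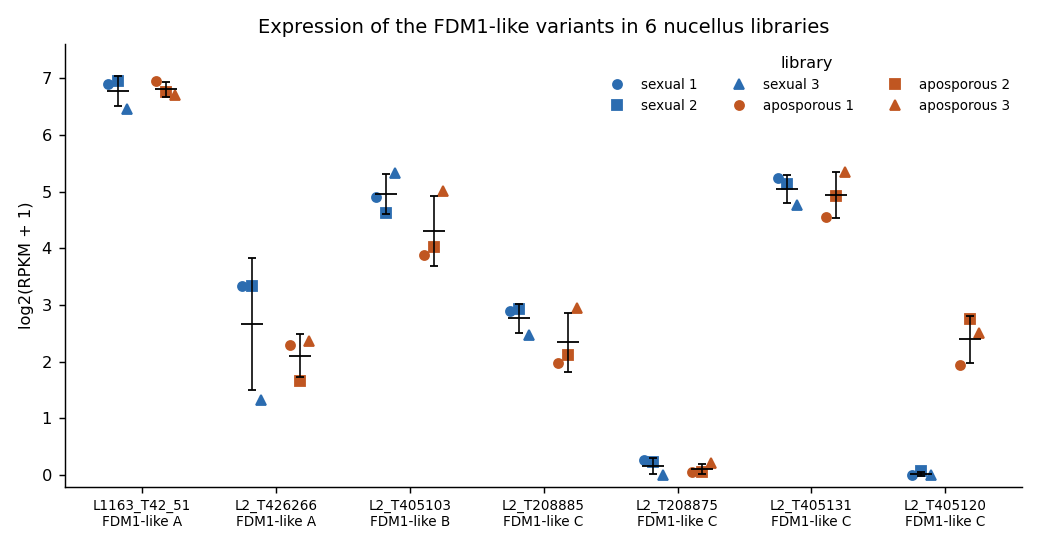
Levels of the 7 *FDM1-like* variants as log2(RPKM + 1), 1 point per library, with sexual libraries in blue and aposporous libraries in orange, the symbol giving the library number, and black lines for the mean and SD of 3 libraries. L1163_T42_51 of *FDM1-like A* is the highest variant in all 6 libraries, and L2_T405120_835163 of *FDM1-like C* is the variant whose phenotypes lie apart, with 0 to 0.0468 RPKM in sexual and 2.84 to 5.73 RPKM in aposporous libraries.

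Within *FDM1-like A*, the usage of the long variant varied most among the sexual libraries. L2_T426266_835163 took 7.16%, 6.99% and 1.70% of the summed RPKM of the gene in the sexual libraries. In the aposporous libraries it took 3.08%, 1.99% and 3.88%, which fell between the sexual values. The mean share was 5.28% ± 3.11 in sexual and 2.98% ± 0.948 in aposporous libraries (SD, n = 3 each), a difference of -2.30 percentage points (exact two-sided permutation test, p = 0.4, adjusted p = 0.5 over 5 shares). With 3 libraries against 3 this exact permutation test cannot go below p = 0.1. Between the means without the third sexual library there were -4.09 points (p = 0.1 by the exact permutation test, again the smallest value possible). Without the first or the second sexual library there were -1.36 or -1.45 points (exact permutation test, p = 0.7 for each).

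In reads, which are not divided by transcript length, L2_T426266_835163 held 477 of the reads of *FDM1-like A* in the first sexual library, or 14.6% (95% exact Clopper-Pearson interval 13.4 to 15.9). The third sexual library held 69 such reads, or 3.69% (2.89 to 4.65). The aposporous libraries lay between 4.32% (3.54 to 5.21) and 8.23% (7.22 to 9.33). The sexual libraries thus differed among themselves by more than counting error, which is all that these intervals cover.

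*FDM1-like B* was represented by a single variant, Locus_2_Transcript_405103_835163 (L2_T405103_835163) of 1548 nt, so its usage could not vary. Its level was 29.0, 23.6 and 39.3 RPKM in the sexual libraries and 13.7, 15.2 and 31.3 RPKM in the aposporous ones. The first 2 aposporous libraries were below every sexual library, and the third aposporous library exceeded 2 of the sexual ones. Mean levels were 30.6 ± 7.95 RPKM in the sexual and 20.1 ± 9.73 RPKM in the aposporous nucellus (SD, n = 3 each). The log2 fold change was -0.65 ± 0.36 (SE), with a 95% interval from -1.46 to 0.16, and did not pass the test (limma, FDR = 0.494). Without the third aposporous library it was -1.0 (limma, FDR = 0.254), and without the third sexual library it was -0.46 (limma, FDR = 0.547). The aposporous libraries varied with a coefficient of variation of 48.5%, where counting error alone gave 2.98%.

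*FDM1-like C* was the gene with the most variants, and their levels spread over more than 2 orders of magnitude. The 615 nt variant Locus_2_Transcript_405131_835163 (L2_T405131_835163) was the major form. The sexual libraries held 36.5, 34.1 and 26.1 RPKM of it and the aposporous ones 22.4, 29.3 and 39.8 RPKM, with both the lowest and the highest value in aposporous plants. The log2 fold change was -0.10 ± 0.28 (SE), with a 95% interval from -0.75 to 0.54 (limma, FDR = 0.922), and -0.24 without the third sexual library.

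Locus_2_Transcript_208885_835163 (L2_T208885_835163), at 1519 nt the longest variant of *FDM1-like C*, reached 6.42, 6.66 and 4.52 RPKM in the sexual libraries. In the aposporous libraries it reached 2.94, 3.32 and 6.69 RPKM. The third aposporous library held the highest value of all 6 and the other 2 aposporous libraries the lowest. The log2 fold change was -0.42 ± 0.39 (SE), with a 95% interval from -1.31 to 0.47 (limma, FDR = 0.725), and -0.57 without the third sexual library. It was -0.72 without the third aposporous library and -0.24 without the first.

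The 781 nt variant Locus_2_Transcript_208875_835163 (L2_T208875_835163) had 6, 5 and 0 reads in sexual and 1, 1 and 5 reads in aposporous libraries. It did not reach 10 reads in any library and was not tested. The ratio of its summed reads, scaled to mapped reads, aposporous over sexual, was 0.669 with a 95% counting interval from 0.220 to 1.89, so a difference was not detectable at this depth.

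The 576 nt variant Locus_2_Transcript_405120_835163 (L2_T405120_835163) was read almost only in aposporous libraries. It had 0, 1 and 0 reads in the sexual libraries against 48, 117 and 106 reads in the aposporous ones. In RPKM these were 0, 0.0468 and 0 against 2.84, 5.73 and 4.66, and the phenotypes did not overlap. A count of 0 in a sexual library allows up to 3 reads, which were worth 0.132 to 0.177 RPKM for this variant across libraries. The variant entered the test through its aposporous libraries alone, since the filter asked for 10 reads in 3 or more libraries, and a transcript that enters in this way had to differ. The ratio of summed reads, scaled to mapped reads, was 285, with a 95% counting interval from 50.7 to 11301. On the log2(RPKM + 1) scale the difference was 2.38 ± 0.33 (SE), with a 95% interval from 1.62 to 3.13 (limma, FDR = 0.0112). With a pseudocount of 0.1 it was 5.25 (limma, FDR = 0.0048), since the added 1 compresses differences of low levels. With no filter on reads the FDR was 0.0203 (limma).

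The call on L2_T405120_835163 was lost without the first sexual library (limma, FDR = 0.0509) or the second (limma, FDR = 0.0667), while the log2 difference stayed between 2.20 and 2.60 whichever library was left out. Leaving out the third sexual library gave 2.36 (limma, FDR = 0.0187). Over all alternatives its FDR was 0.0048 to 0.0667, and it could not be tested when 10 reads were required in every library.

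Of the 6 *FDM1-like* variants tested, this was the only one that passed in this fit, against 2.11% of all 33117 tested transcripts in either direction, 1.5% higher and 0.61% lower in aposporous plants. It was also the only variant of the 6 whose phenotypes did not overlap, a pattern held by 20.1% of all tested transcripts (10.2% higher and 9.9% lower in aposporous libraries). Since it had entered the test through its aposporous libraries alone, neither outcome adds support for a difference. The fold change was above 0 for 2 variants and below 0 for 4, with a median of -0.26, where 52.4% of all tested transcripts were above 0 and their median was 0.03. Counted over the whole table, 277 transcripts, or 0.413%, had at most 1 read in each sexual library and at least 10 in each aposporous one, as L2_T405120_835163 had.

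**Figure D2:**
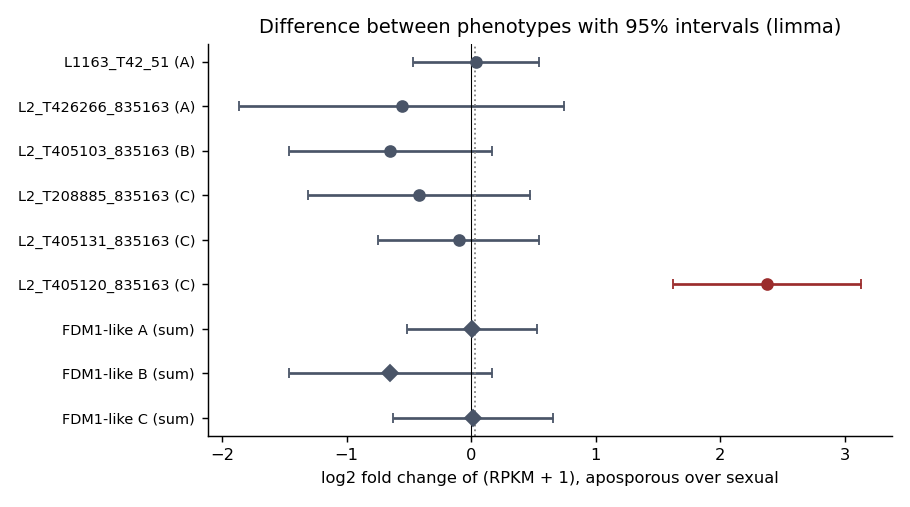
Log2 fold change of (RPKM + 1), aposporous over sexual, for the 6 tested *FDM1-like* variants (circles) and the 3 gene sums (diamonds), with bars for the 95% interval from limma, red where the FDR was 0.05 or less, and a dotted line at the median of all tested transcripts. The interval of L2_T405120_835163 runs from 1.62 to 3.13, and the intervals of the other variants and of the gene sums include 0.

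Usage within *FDM1-like C* was without overlap between the phenotypes for 3 of its 4 variants. Of the variants of this gene, the study reported the shortest alignment to the gene for L2_T405120_835163. Its place in *FDM1-like C*, and with it these shares, rests on the part of the transcript that aligned. L2_T405120_835163 took 0%, 0.114% and 0% of the summed RPKM of the gene in sexual libraries and 10.1%, 14.9% and 9.08% in aposporous ones. The mean shares were 0.0381% ± 0.0660 and 11.4% ± 3.14 (SD, n = 3 each), a difference of 11.3 percentage points. The exact permutation test gave p = 0.1, the floor of this design (adjusted p = 0.167 over 5 shares). The variant had entered through its aposporous libraries alone, so this p-value adds no support for a difference. No share of the 5 passed 0.05, and none could have.

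The share of the major form L2_T405131_835163 was 84.7%, 83.2% and 85.2% in sexual libraries and 79.4%, 76.3% and 77.6% in aposporous ones. The groups did not overlap and differed by -6.63 points (exact permutation test, p = 0.1, adjusted p = 0.167). Counted in reads instead, its share was 68.9% ± 1.55 and 67.6% ± 1.98 (SD, n = 3 each), the groups overlapped and the means differed by -1.25 points (p = 0.5 by the exact permutation test). The gap between the phenotypes in the share of the major form therefore rested on the length scaling.

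The long form L2_T208885_835163 carried 14.9%, 16.3% and 14.8% of the gene in sexual libraries and 10.4%, 8.67% and 13.0% in aposporous ones, again without overlap. The means differed by -4.59 percentage points (p = 0.1 by the exact permutation test, adjusted p = 0.167). Counted in reads, its share was 30.1%, 32.4% and 29.9% in sexual and 22.4%, 19.1% and 27.1% in aposporous libraries. These also did not overlap, and the means differed by -7.92 points. Shares of a gene add up to the whole, so a variant that is read almost only in aposporous libraries lowers the others. L2_T208885_835163 was therefore also set against L2_T405131_835163 alone, a measure chosen after its values were seen. Its share of that pair was 14.9%, 16.3% and 14.8% in sexual and 11.6%, 10.2% and 14.4% in aposporous libraries. These groups still did not overlap, although the third aposporous library came within less than a percentage point of the sexual ones.

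Outside the assembly locus that holds 6 of the 7 variants and 33877 transcripts in all, 17.6% of the 5067 transcripts that could be compared with another variant of their own locus had usage without overlap between the phenotypes. In *FDM1-like A* and *C* it was 3 of 5 shares (L2_T405120_835163, L2_T405131_835163 and L2_T208885_835163), and these 3 are parts of the same sum. The 5 include the untested L2_T208875_835163, whereas the 17.6% covers tested transcripts only. L2_T405120_835163 had entered the test through its aposporous libraries alone, and the share of L2_T405131_835163 overlapped in reads. No excess of changed usage can therefore be read from this count. The remaining variant, L2_T208875_835163, held 0.294% ± 0.255 of *FDM1-like C* in sexual and 0.188% ± 0.115 in aposporous libraries (SD, n = 3 each), with overlap.

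**Figure D3:**
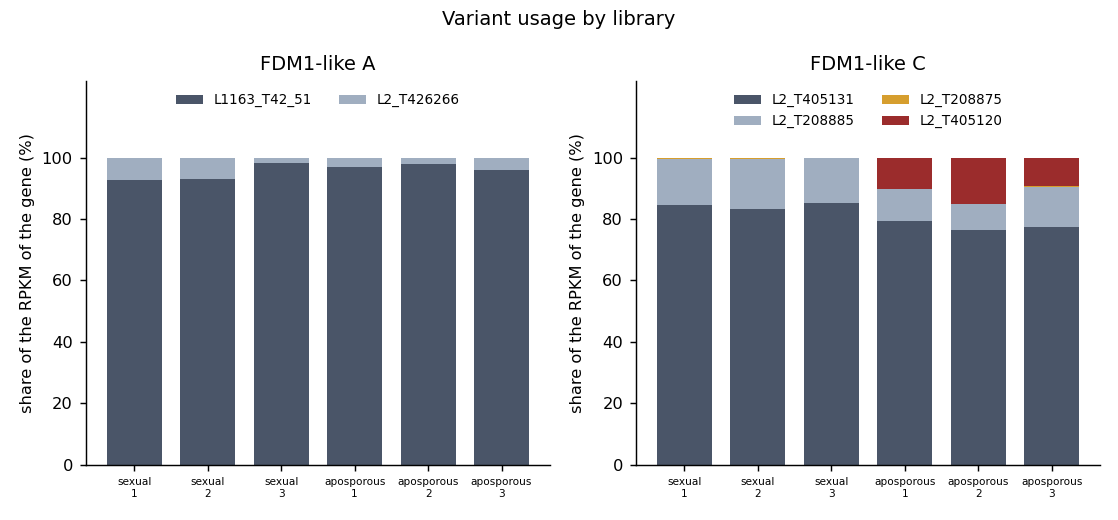
Share of each variant in the summed RPKM of its gene, in percent, as stacked bars for the 6 libraries, with *FDM1-like A* on the left and *FDM1-like C* on the right. L2_T405120_835163 (red) makes up 9.08% to 14.9% of *FDM1-like C* in the aposporous libraries and at most 0.114% in the sexual ones. Labels leave out the ending that all variants of locus 2 share.

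Reads give the precision of these shares in each library. L2_T405120_835163 held 48 of 584 reads of *FDM1-like C* in the first aposporous library, or 8.22% (95% exact Clopper-Pearson interval 6.12 to 10.7). It held 117 of 935 reads in the second, or 12.5% (10.5 to 14.8), and 106 of 1479 in the third, or 7.17% (5.90 to 8.6). In the first sexual library it held 0 of 1252 reads and in the third 0 of 778 reads. The upper limits of the same exact interval were 0.294% and 0.473% there, and a count of 0, taken as up to 3 reads, allows 0.240% and 0.386%. The second sexual library held 1 of 1158 reads, or 0.0864% (0.00219 to 0.480). The lowest lower limit of an aposporous library, 5.90%, lay above the highest upper limit of a sexual library. These intervals cover counting error and not the spread between pools. The variant had also entered the test through its aposporous libraries alone, so the gap adds no support for a difference.

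**Figure D4:**
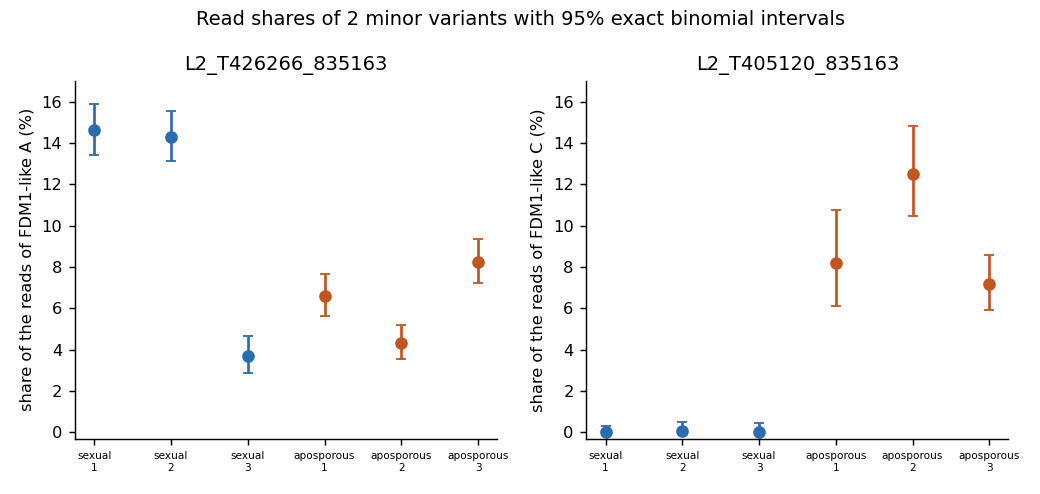
Share of reads of the gene, in percent, held by L2_T426266_835163 in *FDM1-like A* (left) and by L2_T405120_835163 in *FDM1-like C* (right) in each of the 6 libraries, sexual in blue and aposporous in orange, with bars for the 95% exact binomial interval. The share of L2_T426266_835163 separates the first 2 sexual libraries, at 14.6% and 14.3%, from the other 4. The share of L2_T405120_835163, which entered the test through its aposporous libraries alone, separates the phenotypes. The intervals cover counting error only.

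Near-identical variants can divide or share reads, and whether reads matching several of these variants were placed at random or left out is not given in the sources used here. The level of a single variant is uncertain on that account, and the sums per gene were tested as the steadier measure. *FDM1-like A* summed to 127, 131 and 88.6 RPKM in sexual and 127, 109 and 107 RPKM in aposporous libraries. *FDM1-like C* summed to 43.2, 40.9 and 30.6 RPKM in sexual and 28.2, 38.4 and 51.3 RPKM in aposporous libraries. For *FDM1-like B* the sum is its single variant. All 3 genes overlapped between the phenotypes.

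No gene sum passed the test, against 2.08% of the 33111 features in that fit, and none passed when limma-voom was run on the recovered reads. With all libraries and no block, none of the 3 had an unadjusted p under 0.05 in limma, where 13.8% of all features did. For *FDM1-like B* the unadjusted p was 0.0478 with library number as a block (limma, FDR = 0.352). It was 0.0149 without the third aposporous library (limma, FDR = 0.254). The log2 fold change was 0.00 ± 0.23 (SE) for *FDM1-like A*, with a 95% interval from -0.52 to 0.52 (limma, FDR = 0.998). For *FDM1-like C* it was 0.01 ± 0.28 (SE), from -0.63 to 0.66 (limma, FDR = 0.992). L2_T405120_835163 made up at most 14.9% of the gene in any library, so the sum could move little with it. The values were -0.18 for *FDM1-like A* and -0.14 for *FDM1-like C* without the third sexual library. In sections of a whole tissue, fewer cells with a transcript and less of it per cell cannot be told apart.

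The levels of the 3 genes kept much of their order within each library. Over all 6 libraries the mean was 115 ± 16.4 RPKM for *FDM1-like A*, 38.8 ± 8.49 for *FDM1-like C* and 25.4 ± 9.83 for *FDM1-like B* (SD, n = 6). *FDM1-like A* exceeded its neighbour *FDM1-like B* in 6 of 6 libraries, by 2.26- to 9.25-fold with a geometric mean of 4.82 (exact sign-flip permutation test on log2 ratios, p = 0.0312, adjusted p = 0.0469 over 3 pairs). It exceeded *FDM1-like C* in 6 of 6 libraries, by 2.09- to 4.51-fold with a geometric mean of 3.00 (exact sign-flip permutation test, adjusted p = 0.0469). *FDM1-like B* was below *FDM1-like C* in 5 of 6 libraries and above it in the third sexual library, with log2 ratios of B to C from -1.33 to 0.36 and a mean of -0.68 ± 0.58 (SD, n = 6). This pair missed the threshold (exact sign-flip permutation test, adjusted p = 0.0625), which does not show that the levels of B and C were alike.

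This order rests on levels per length. In reads, the mean log2 ratio of *FDM1-like A* to *FDM1-like B* was 0.99 (exact sign-flip permutation test, p = 0.0625), with more reads of B than of A in the third sexual library. The mean log2 ratio of *FDM1-like B* to *FDM1-like C* turned to 0.40 in reads (exact sign-flip permutation test, p = 0.0938), since the variant of B is longer than the major variant of C. Within *FDM1-like C*, L2_T405131_835163 exceeded L2_T208885_835163 in 6 of 6 libraries, by 5.12- to 8.80-fold per length. Within *FDM1-like A*, L1163_T42_51 exceeded L2_T426266_835163 in 6 of 6 libraries, by 13.0- to 57.9-fold.

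The balance among the genes overlapped between the phenotypes, and no difference in it passed the test. *FDM1-like A* made up 63.9%, 67.0% and 55.9% of the summed RPKM of the 3 genes in sexual and 75.2%, 67.1% and 56.5% in aposporous libraries (difference 4.0 percentage points, exact permutation test, p = 0.4, adjusted p = 0.6 over 3 shares). That difference was 0.836 points without the third sexual library, -0.473 without the first aposporous library and 8.88 without the third aposporous library. *FDM1-like B* made up 14.5%, 12.1% and 24.8% in sexual and 8.13%, 9.36% and 16.5% in aposporous libraries (difference -5.81 points, exact permutation test, p = 0.3, adjusted p = 0.6). Here the third library of each phenotype moved the value, to -1.99 points without that of the sexual and -8.38 without that of the aposporous plants. The share of *FDM1-like B* was highest in the third library of each phenotype, and those were also the libraries with the lowest shares of *FDM1-like A*. *FDM1-like C* made up 21.6%, 21.0% and 19.3% in sexual and 16.7%, 23.6% and 27.0% in aposporous libraries (difference 1.81 points, exact permutation test, p = 0.6, adjusted p = 0.6). Leaving out the third sexual library gave 1.15 points, the first aposporous library 4.68 and the third aposporous library -0.492.

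Between the neighbours on contig 61981, the log2 ratio of *FDM1-like A* to *FDM1-like B* was 2.14, 2.47 and 1.17 in sexual and 3.21, 2.84 and 1.78 in aposporous libraries. The means were 1.93 ± 0.67 and 2.61 ± 0.74 (SD, n = 3 each), which differed by 0.68 (exact permutation test, p = 0.3, adjusted p = 0.45 over 3 ratios). It was 0.31 without the third sexual library, 0.38 without the first aposporous library and 1.10 without the third aposporous library. A ratio within a library does not depend on how the libraries are scaled to each other.

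The ratio of *FDM1-like A* to *FDM1-like C* was nearly constant among sexual libraries and spread more widely among aposporous ones. Its log2 value was 1.56, 1.68 and 1.53 in sexual and 2.17, 1.51 and 1.06 in aposporous libraries, with means of 1.59 ± 0.08 and 1.58 ± 0.56 (SD, n = 3 each). The difference of the spreads was not tested. The log2 ratio of *FDM1-like B* to *FDM1-like C* was -0.58, -0.79 and 0.36 in sexual and -1.04, -1.33 and -0.71 in aposporous libraries. The difference of its means was -0.69 (exact permutation test, p = 0.2, adjusted p = 0.45), and -0.34 without the third sexual library.

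**Figure D5:**
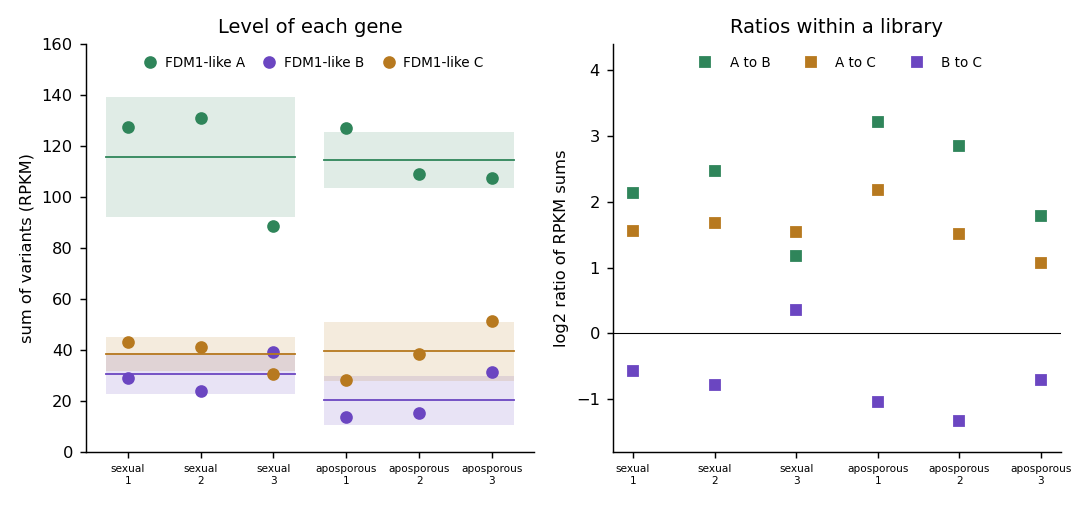
Summed RPKM of *FDM1-like A*, *B* and *C* in the 6 libraries (left, points, with lines for the mean and shading for the SD of the 3 libraries of a phenotype) and log2 ratios between the genes within each library (right). *FDM1-like A* lies above the other genes in every library, and the ratio of *FDM1-like B* to *FDM1-like C* is above 0 in the third sexual library, at 0.36, and below 0 in the other 5.

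The other genes of the family, *IDN2-like A* and *B* and *FDM4-like A* to *D*, held 11 variants, of which 9 were tested. Of these, 1 passed, against 2.11% of all tested transcripts in either direction and 0.61% lower in aposporous plants. The variant that passed was lower in aposporous libraries, whereas the *FDM1-like* variant that passed was higher there. It was L13153_T20_20 of *IDN2-like B*, with a log2 fold change of -2.28 (limma, FDR = 0.0299). That call was lost with upper-quartile scaling (FDR = 0.0540), voom (0.0544), the replicate block (0.0676), 10 reads required in every library (0.0881) and when any library but the first sexual one was left out (limma, FDR = 0.0538 to 0.113). Between the phenotypes 5 of the 9 variants did not overlap, against 20.1% of all tested transcripts. The 5 include L2_T484402_835163 of *FDM4-like C*, which missed the threshold and was named after its values were seen. It had 2, 0 and 0 reads in sexual and 211, 416 and 43 reads in aposporous libraries. A variant with few or no reads in sexual libraries was therefore not particular to *FDM1-like C*. L2_T484402_835163 too entered the test through its aposporous libraries alone, so its lack of overlap adds no support for a difference. Its FDR in limma was 0.0660, with 0.0199 at a pseudocount of 0.1 and 0.0182 without the third aposporous library. In the other fits it was 0.0678 to 0.198. Of the 6 gene sums of *IDN2-like* and *FDM4-like* genes, *IDN2-like B* passed, with -2.14 (limma, FDR = 0.0315). Of all features in that fit, 0.598% passed and were lower in aposporous libraries. This call too was lost with voom (FDR = 0.0509), upper-quartile scaling (0.0563), the replicate block (0.0669), 10 reads required in every library (0.0932) and when any library but the first sexual one was left out (limma, FDR = 0.0509 to 0.128). The 3 *FDM1-like* genes together summed to 185 ± 22.6 RPKM in sexual and 174 ± 14.3 RPKM in aposporous libraries (SD, n = 3 each). Their share of the RPKM of the whole family was 39.9%, 35.7% and 28.3% in sexual and 40.9%, 39.4% and 45.6% in aposporous libraries. These shares overlapped and differed by 7.33 percentage points (exact permutation test, p = 0.2). They also depend on the other genes. The *IDN2-like* genes summed to 224 ± 66.4 RPKM in sexual and 71.8 ± 21.0 RPKM in aposporous libraries (SD, n = 3 each). For the *FDM4-like* genes the sums were 127 ± 16.8 and 168 ± 8.87 RPKM.

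By Pearson correlation of log2(RPKM + 1) over the 6 libraries, the family gene most like *FDM1-like A* was *IDN2-like A* (r = 0.742, Spearman rho = 0.486). That r was -0.177 without the third sexual library. For *FDM1-like C* the most alike was also *IDN2-like A* (r = 0.456, rho = 0.257), which without the third sexual library came to 0.0299. By rho its order was another, with *FDM4-like B* at 0.714 and *FDM4-like D* at 0.486. For *FDM1-like B* it was *IDN2-like B* (r = 0.382, rho = 0.314), with 0.0398 without the third sexual library and 0.919 without the third aposporous library, and rho was higher with *FDM1-like C* (0.429). *FDM1-like A* and its neighbour *FDM1-like B* gave r = -0.521 and rho = -0.543. Each of these rests on 6 points that share library depth, and the likeness of *IDN2-like* genes to *FDM1-like* genes changed with a single library.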

How the data were processed

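Libraries of 3 sexual and 3 aposporous pools were compared. The authors built a de novo assembly from sexual and apomictic reads, then mapped and counted the reads with CLC Genomics Workbench 7. The deposited values are RPKM per transcript and library, with the transcript length in its name. RPKM times length was a whole multiple of a constant in each library (all values within 0.05 read), so reads were recovered, and their sums were the mapped reads. For mapping, and for reads that match several transcripts, the study's methods state only default parameters. Gene positions were copied from the study's annotation.

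Transcripts that reached 10 recovered reads in 3 or more libraries were tested on log2(RPKM + 1) with limma 3.58.1 in R 4.3.3 (trend and robust options, sexual as reference). P-values were adjusted by Benjamini-Hochberg over all tested transcripts, with a call at FDR of 0.05 or less. The pseudocount of 1 understates fold changes of low transcripts. Gene sums replaced the family's variants in a further fit. Shares and ratios were compared by an exact two-sided permutation test over the 10 divisions of the libraries, and order within libraries by an exact sign-flip test (scipy 1.17.1). The fit was tested on simulated data. No pair of libraries agreed within counting noise. Alternatives were the pseudocount, the read filter, the library scaling, voom, a replicate block, reads in place of RPKM, and leaving out each library. The text names all 7 variants and 3 gene sums, other family members that passed, and the most alike family gene. The members and lists were chosen with earlier results of these data known. Intervals on read shares cover counting error only.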

Additional observations from a re-analysis of the deposited data

How the results depend on the processing

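The count of *FDM1-like* variants past the threshold was 1 with all libraries, 0 of 5 tested when 10 reads were required in every library, and 0 to 1 when a library was left out (0 without the first or the second sexual library). The count of gene sums past it was 0 throughout. Over all transcripts, limma made 699 calls in the main setting, 352 without a read filter, 40 with 10 reads required in every library, 325 with voom and 169 to 623 when a library was left out. Whether library numbers paired the samples was not settled. Same-numbered libraries deviated together with correlations of only 0.0488, 0.0637 and 0.0381, although each library correlated best with its own number. With the replicate block, limma made 353 calls, L2_T405120_835163 kept its call (FDR = 0.0392) and *FDM1-like B* reached an FDR of 0.352. Log2 fold changes near 0 changed sign. Upper-quartile scaling gave -0.0788 for L1163_T42_51, -0.11 for *FDM1-like A* and -0.10 for *FDM1-like C*, and voom gave -0.0444 and -0.0629 for those genes. Leaving out a library gave -0.12 to 0.12 for L1163_T42_51, -0.31 to 0.0946 for L2_T405131_835163, -0.18 to 0.10 for *FDM1-like A* and -0.20 to 0.22 for *FDM1-like C*. The cause was not tested. Between phenotypes it gave -0.473 to 8.88 percentage points for the share of *FDM1-like A* among the 3 genes, -0.492 to 4.68 for that of *FDM1-like C*, and -0.31 to 0.25 for the log2 ratio of A to C, which was 0.0434 in reads. With 5 libraries the exact sign-flip test cannot go below p = 0.0625, so no order could pass. Mean log2 ratios then ranged from 2.08 to 2.49 for A over B (0.99 in reads), 1.47 to 1.69 for A over C, -0.89 to -0.55 for B over C (0.40 in reads), 2.58 to 2.74 for L2_T405131_835163 over L2_T208885_835163, and 4.53 to 4.96 for L1163_T42_51 over L2_T426266_835163. The deposited values are RPKM, and the planned edgeR and DESeq2 fits were not run. In their place voom was run on the recovered reads.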

Other observations

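The assembly gave the 7 variants very different surroundings. L1163_T42_51 belongs to an assembly locus with 2 transcripts in the table, whereas the other 6 variants belong to a locus with 33877. Variants of several family genes share that locus. The variant of *FDM1-like B* and the L2_T405131_835163 and L2_T405120_835163 variants of *FDM1-like C* carry neighbouring numbers, and 2 other *FDM1-like* variants lie within 20 numbers of L2_T405120_835163. Whether reads were exchanged between these variants was not tested.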
